A study of Mus musculus with 8 samples.

Results

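Zinc, iron and copper enter, leave and are stored in mammalian cells through a limited set of proteins, and the genes of that set are described here in 2 pluripotent states of the mouse. They were listed by symbol, but the list was drawn up with earlier results of these data known. It holds the Slc39a zinc importers (14 genes), the Slc30a zinc exporters (10), the metallothioneins Mt1, Mt2 and Mt3 with their regulator Mtf1, the iron genes Tfrc, Trf, Slc11a1, Slc11a2, Fth1, Ftl1, Slc40a1, Aco1 and Ireb2, the Steap metalloreductases (4), and the copper genes Slc31a1, Slc31a2, Atp7a and Atp7b. The choice gave 45 genes of 23699 entries in the tables; Tfr2 was not analysed here. All 45 stood at 1 locus with an accepted estimate in all 8 libraries.

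Polyadenylated RNA was sequenced from mouse epiblast stem cells (mEpiSC), the primed state, and mouse embryonic stem cells (mESC), the naive state, with 4 libraries of each. The mEpiSC were of the lines EpiSC5 (library 1), EpiSC7 (libraries 2 and 3) and EpiSC9 (library 4), were kept with the growth factor FGF2 and were passaged as clumps with collagenase. The mESC were of the lines ESF122 (libraries 1 and 2) and ESF175/1 (libraries 3 and 4), were kept with the cytokine LIF and were passaged as single cells with trypsin. Both were grown in the same base medium with serum replacement on a feeder layer of irradiated mouse fibroblasts, from which they were parted before lysis. No label gives the strain, the sex or the passage of a line, or says that libraries of 1 line were separate cultures, so p-values measure the spread between these libraries, which may be technical.

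Zinc importers of the Slc39a (ZIP) family carry zinc into the cytosol, and Slc30a (ZnT) exporters carry it out of the cell or into vesicles. Metallothioneins bind spare zinc and copper, and the zinc sensor Mtf1 drives their transcription from metal response elements. Iron arrives with transferrin (Trf) through the transferrin receptor (Tfrc), is stored in ferritin (Fth1 and Ftl1) and leaves through ferroportin (Slc40a1); the iron regulatory proteins encoded by Aco1 and Ireb2 bind iron response elements in several of these messages when iron is low, which blocks ferritin translation and protects the Tfrc message from decay. Copper is taken up by Slc31a1 and pumped out or into the Golgi by Atp7a and Atp7b.

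Levels are FPKM (fragment counts divided by transcript length and by library size) as the authors deposited them, and positions are the mm9 intervals of the tables. Each library held an estimated 24800000 to 38600000 fragments, with 10947 to 11524 entries at 1 FPKM or more. Fold changes subtract the mean log2(FPKM + 1) of mESC from that of mEpiSC, a scale that damps differences at low levels; adjusted p are from limma with Benjamini-Hochberg adjustment over 11556 tested genes. In bulk RNA a smaller share of cells that use a gene and less RNA of it per cell cannot be told apart. The labelled states fitted their markers: 8 of 8 naive markers were lower in mEpiSC, where 14.2% of all tested genes were. Of the primed markers 5 of 6 were higher, where 23.1% of all were. The core factors Pou5f1, Sox2 and Nanog did not pass the test (adjusted p = 0.44, 0.11 and 0.74). The first principal component parted the states, and the second set both replicate 4 libraries apart from the other 6. Fibroblast markers, which the feeder cells would carry, were present in every library, with a summed level of 98.5 to 544 FPKM in mEpiSC and 12.3 to 289.5 FPKM in mESC over 14 genes. Of these markers 6 of 13 tested were higher in mEpiSC, where 23.1% of all tested genes were. Markers of extraembryonic endoderm (12 genes) summed to 86.9 FPKM in the EpiSC5 library, to 9.31 to 19.1 FPKM in the other mEpiSC libraries and to 3.74 to 7.48 FPKM in mESC, and among its serum protein genes Afp and Ttr were at or near 0 throughout, while Apoa1 stood at 13.8 FPKM in EpiSC5, between 0.324 and 0.657 FPKM in mEpiSC 2 to 4 and at 0.0261 to 0.199 FPKM in mESC. Of the endoderm list Hnf4a, Cubn and Amn did not follow the sum. Hnf4a stood at 0.460 to 0.953 FPKM in mESC, against 1.12 FPKM in EpiSC5 and 0.0202 to 0.102 FPKM in mEpiSC 2 to 4. Cubn stood at 0.0405 to 1.27 FPKM in mESC and 0.217 FPKM in EpiSC5, and Amn at 0.455 to 2.03 and 0.579 FPKM. The part of fibroblasts or endoderm cells in a result was not tested, apart from the covariate fits and left-out libraries given with it.

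Of the 45 genes 38 reached 1 FPKM in at least 4 libraries and were tested. In mEpiSC 13 were higher, where 23.1% of all tested genes were called higher, 9 were lower, where 14.2% of all were, and 16 did not pass. At least 2-fold differences were called for 2 higher and 7 lower genes, where 9.93% and 5.19% of all tested genes were. The median log2 fold change over the 38 was 0.15, beside 0.083 over all tested genes. The values of the states did not overlap for 22 of the 38, where 37.1% of all genes did not. For 19 the log2 fold change was bounded by −1 and 1 over its whole 95% interval, as it was for 62.2% of all genes. Slc30a2 and Trf entered the test through mESC alone (0 mEpiSC and 4 mESC libraries at 1 FPKM), so their difference was partly set by that filter and no p is given for them. Without both, 13 of 36 were higher and 7 lower, with 5 of the 7 at least 2-fold lower; without all genes of that kind 21.8% of genes were higher, 12.8% lower and 3.62% at least 2-fold lower. A further 5 genes, Slc39a8, Slc39a3, Slc40a1, Slc30a3 and Atp7b, had all 4 mEpiSC libraries but fewer mESC libraries at 1 FPKM. For these the mESC libraries alone would not have met the filter, and the higher count was not made without them. Without replicate 4 of both states 11 genes were higher (26.4% of all) and 10 lower (18.7%). Without the mESC 3 library the higher count was 8, and with libraries averaged to 1 mean per line the counts were 4 higher and 3 lower. The shares of all tested genes called in these last fits were not counted, so a drop particular to the set cannot be read from them.

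**Figure D1:**
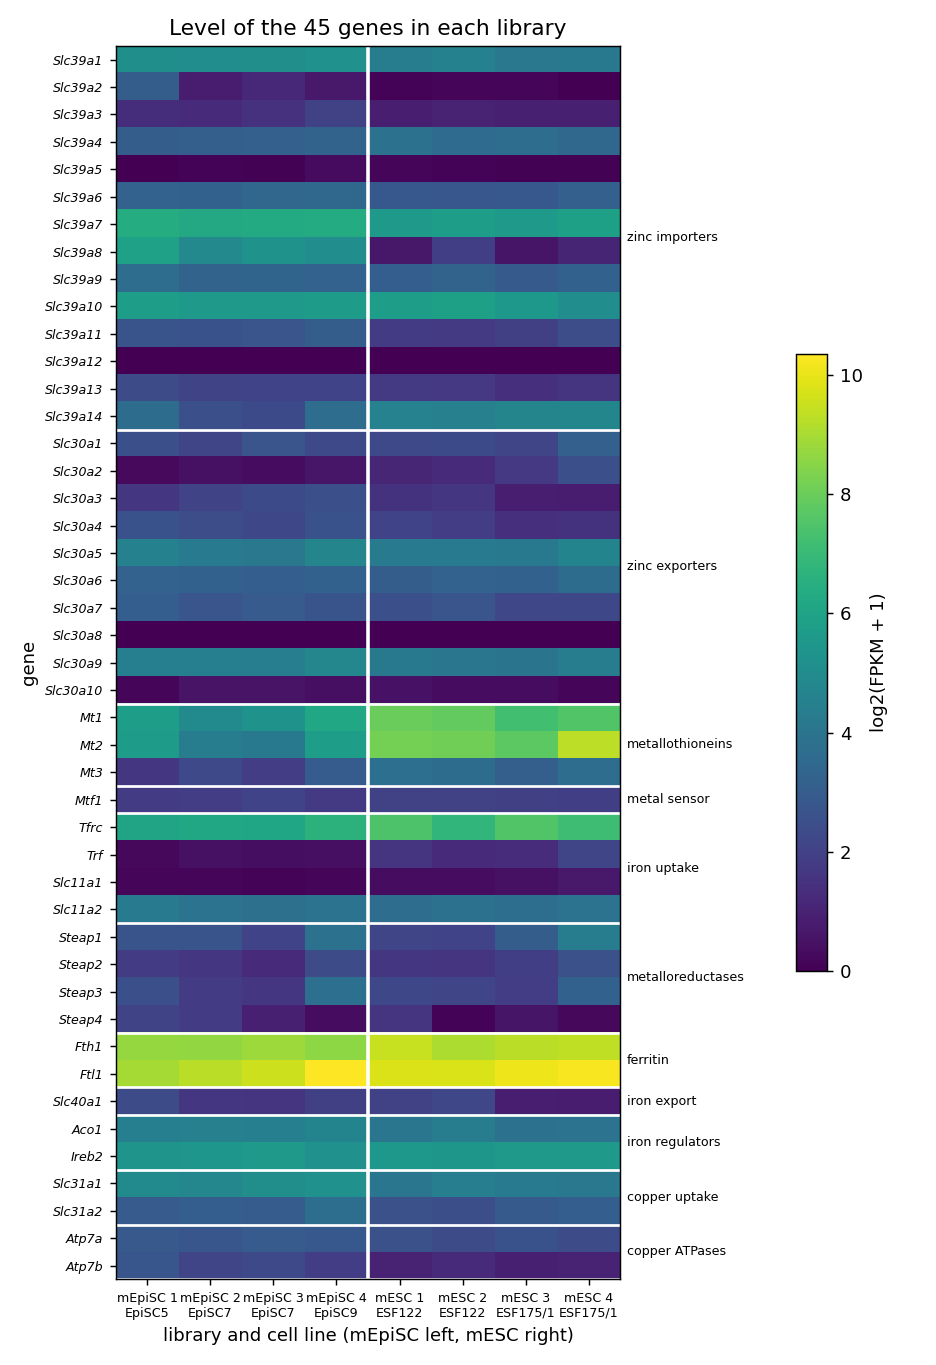
Level of the 45 genes (rows, grouped by role) in the 4 mEpiSC libraries (left) and 4 mESC libraries (right), as log2(FPKM + 1) in colour. Slc39a8 is bright in mEpiSC and dark in mESC, the metallothioneins are brighter in mESC, and Fth1 and Ftl1 are bright in all 8 libraries.

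Of the zinc importers 7 of 11 tested members were higher in mEpiSC, where 23.1% of all tested genes were, 2 were lower, where 14.2% were, and 2 did not pass. Slc39a8 (mm9 chr3:135488454-135551536), which encodes ZIP8, a plasma membrane importer of zinc that also carries manganese, stood at 58.8, 28.4, 38.01 and 32.7 FPKM in mEpiSC 1 to 4, against 0.602, 2.75, 0.495 and 1.08 FPKM in mESC 1 to 4. All 4 mEpiSC libraries were above 28 FPKM and all 4 mESC libraries below 3, so the states were far from overlapping. Its log2 fold change was 4.23 (SE 0.32, 95% interval 3.51 to 4.95). This gene was picked out with its difference already known, so the value is a description and no p is given for it. It counts among the 13 higher genes.

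Within mESC the level of Slc39a8 was highest in library 2, at 2.75 FPKM. Of the 6 primed markers Fgf5, Fgf8, Cer1 and Cdh2 were also highest there among mESC, and Otx2 and Pou3f1 were highest in mESC 1: Fgf8 stood at 21.6 FPKM in mESC 2 and at 1.58 to 3.00 FPKM in mESC 1, 3 and 4, and Otx2 at 19.7 FPKM in mESC 2 and 27.4 FPKM in mESC 1. The mESC 2 level of Slc39a8 is a value of 1 library, and the part of primed cells in it was not tested. Within mEpiSC Slc39a8 was highest in the EpiSC5 library, the one with the most endoderm marker RNA. Gata6 measured 26.4 FPKM there and 1.71 to 4.41 FPKM in the other mEpiSC libraries. Of the same list Sox7 was higher in mEpiSC 3 (0.919 FPKM) than in EpiSC5 (0.519 FPKM), and Afp higher in mEpiSC 4 (0.113 against 0.0390 FPKM). Without the EpiSC5 library the log2 fold change of Slc39a8 was 4.02. The EpiSC5 library also held the most fibroblast marker RNA (544 FPKM), while mESC 1, with the most fibroblast marker RNA of the mESC (289.5 FPKM), had 0.602 FPKM of Slc39a8, and mEpiSC 4, with the least of the mEpiSC (98.5 FPKM), had 32.7 FPKM. With the mean fibroblast marker level as a covariate the log2 fold change was 4.25. Several fibroblast markers also differed between the states, and the part of feeder or endoderm cells in the Slc39a8 level was not tested further. Only 0.5% of the 50-base windows of its transcripts recurred in transcripts of other genes, and the overlapping entry 4933401H06Rik did not exceed 0.0212 FPKM.

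The change in Slc39a8 altered its place in the family. Summed over all 14 importers the family stood at 289, 224, 239 and 257 FPKM in mEpiSC 1 to 4, against 176, 192, 164 and 168 FPKM in mESC 1 to 4. Slc39a8 made up 20.3%, 12.7%, 15.9% and 12.7% of that sum in mEpiSC 1 to 4 and 0.342%, 1.43%, 0.302% and 0.646% in mESC 1 to 4. It ranked 2, 4, 3 and 4 among the 14 importers in mEpiSC 1 to 4 and 11, 8, 11 and 10 in mESC 1 to 4. The sum was thus higher in every mEpiSC library than in any mESC library; being a score over chosen genes, it was not tested.

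**Figure D2:**
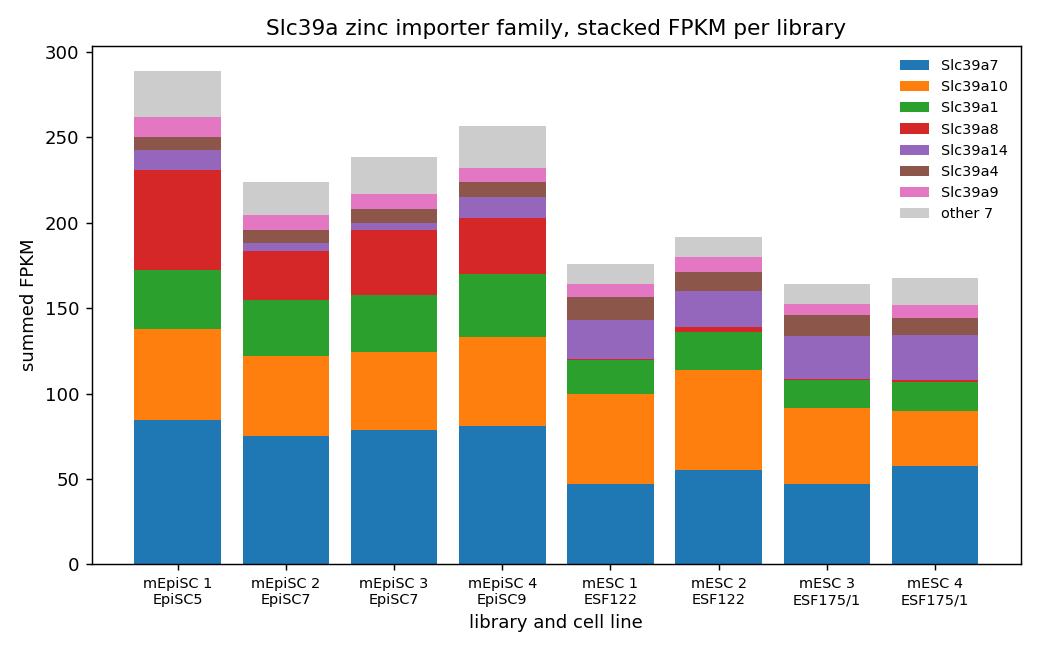
Summed FPKM of the 14 Slc39a zinc importers in each mEpiSC library (left 4 bars) and mESC library (right 4 bars), stacked by gene, with the 7 lowest genes pooled in grey. The red Slc39a8 segment is 12.7% to 20.3% of the mEpiSC bars and at most 1.43% of the mESC bars, and the purple Slc39a14 segment is thicker in mESC.

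Slc39a14, which encodes ZIP14, the family's closest known counterpart of ZIP8 and an importer of zinc, manganese and iron, went the other way (mm9 chr14:70703273-70751231). It stood at 11.6, 4.69, 4.00 and 12.1 FPKM in mEpiSC 1 to 4, against 23.0, 21.5, 25.04 and 26.1 FPKM in mESC 1 to 4. The states did not overlap, and the 2 EpiSC7 libraries were lowest of all (log2 fold change −1.58, SE 0.32, adjusted p = 0.0050). With 1 mean per line the adjusted p was 0.091. The ratio of Slc39a8 to Slc39a14 in FPKM, both per length, was 5.06, 6.06, 9.50 and 2.69 in mEpiSC 1 to 4, against 0.0262, 0.128, 0.0198 and 0.0414 in mESC 1 to 4. In each mEpiSC library Slc39a8 was thus the more abundant of the pair, and in each mESC library Slc39a14 was.

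The abundant importers moved less. Slc39a7, the zinc channel of the endoplasmic reticulum and the most abundant importer in mEpiSC, measured 79.8 ± 3.95 FPKM in mEpiSC against 51.6 ± 5.38 FPKM in mESC (SD, n = 4 each; log2 fold change 0.63, SE 0.11, adjusted p = 0.0029); 80.2% of its transcript windows are shared with the annotation Gm20427, so its level is uncertain. Slc39a1, a plasma membrane importer of most tissues, measured 34.5 ± 1.83 FPKM in mEpiSC against 18.9 ± 2.74 FPKM in mESC (log2 fold change 0.84, SE 0.12, adjusted p = 0.0012), and 21.8% of its windows recur in the pseudogene Slc39a1-ps. Slc39a10, an importer that works in a complex with Slc39a6, showed no call: it stood at 53.2, 46.8, 45.8 and 52.0 FPKM in mEpiSC 1 to 4, against 52.9, 58.6, 44.5 and 32.4 FPKM in mESC 1 to 4. Its states overlapped (adjusted p = 0.70) and the 95% interval of its log2 fold change, −0.31 to 0.50, stayed inside −1 to 1, while the sign turned with the scaling (−0.010 after median ratio scaling) and without mESC 4 (−0.066).

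Smaller differences made up the rest of the family. Slc39a11 (log2 fold change 0.79, SE 0.18) and Slc39a13, an importer of intracellular vesicles (0.57, SE 0.15), were higher in mEpiSC, with adjusted p of 0.0095 and 0.015. Slc39a3 (0.60, SE 0.19, adjusted p = 0.032) and Slc39a6 (0.41, SE 0.13, adjusted p = 0.036) were higher as well. Slc39a3 reached 1 FPKM in all 4 mEpiSC libraries but in only 1 mESC library, so its difference was partly set by the filter. The call of Slc39a3 was lost without mESC 1, 2, 3 or 4 or mEpiSC 3 (adjusted p = 0.051 to 0.078), and that of Slc39a6 without any 1 library other than mESC 4 or mEpiSC 1 (0.058 to 0.099) and after median ratio scaling (0.077); both were lost after quantile normalization (0.11 for Slc39a3 and 0.14 for Slc39a6) and under the random line block (0.066 and 0.11). That of Slc39a13 was lost after quantile normalization (0.079) and with the fibroblast covariate (0.12), and with 1 mean per line all 4 were lost (0.074 for Slc39a11, 0.13 for Slc39a13 and 0.17 for both others). Slc39a4, the importer that takes up dietary zinc in the gut, was lower, at 8.004 ± 0.626 FPKM in mEpiSC against 11.6 ± 1.48 FPKM in mESC (SD, n = 4 each; log2 fold change −0.49, SE 0.13, adjusted p = 0.015), and lost the call without mESC 1 (adjusted p = 0.051), with the line as a random block (0.063) and with 1 mean per line (0.12). Slc39a9, an importer of the Golgi, did not pass (9.65 ± 1.60 FPKM in mEpiSC against 7.74 ± 0.896 FPKM in mESC, adjusted p = 0.15).

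The 3 untested importers were low. Slc39a2 stood at 7.23, 0.774, 1.26 and 0.654 FPKM in mEpiSC 1 to 4, against 0.0702, 0.0899, 0.0899 and 0.0262 FPKM in mESC 1 to 4. Its states did not overlap, with or without the EpiSC5 library. That library was over the other mEpiSC libraries by several fold and is the one with the most endoderm marker RNA. The part of endoderm cells in its Slc39a2 level was not tested. Slc39a5 stayed at or below 0.240 FPKM in mEpiSC and 0.0997 FPKM in mESC, and Slc39a12 at or below 0.0273 FPKM in mEpiSC and 0.00882 FPKM in mESC.

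Among the zinc exporters 2 of 8 tested members were higher in mEpiSC, 1 was lower and 5 did not pass, shares near those of all tested genes (23.1% higher and 14.2% lower). Slc30a3, known for loading zinc into synaptic vesicles, measured 3.56 ± 1.16 FPKM in mEpiSC against 1.38 ± 0.712 FPKM in mESC (SD, n = 4 each; log2 fold change 0.95, SE 0.27, adjusted p = 0.022); its states overlapped, and leaving out mESC 3, mESC 4 or mEpiSC 3 ended the call (adjusted p = 0.052 to 0.065), as did a fit without replicate 4 of both states (0.078), the fibroblast covariate (0.086) and 1 mean per line (0.16). Slc30a4, an exporter into endosomes and secretory vesicles, measured 4.59 ± 0.676 FPKM in mEpiSC against 2.38 ± 0.710 FPKM in mESC (log2 fold change 0.74, SE 0.18, adjusted p = 0.012), without overlap; the call was lost with the fibroblast covariate (log2 fold change 0.53, adjusted p = 0.11) and with 1 mean per line (0.087). Slc30a2, a vesicle exporter known from the mammary gland, stood at 0.206, 0.378, 0.275 and 0.545 FPKM in mEpiSC 1 to 4, against 1.19, 1.37, 2.28 and 4.74 FPKM in mESC 1 to 4. Every mEpiSC library was below every mESC library, and mESC 4 was the highest (log2 fold change −1.22, SE 0.29). With the fibroblast covariate the log2 fold change was −0.70 and with 1 mean per line −1.22; the gene entered the test through mESC alone.

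Slc30a1, the main zinc exporter of the plasma membrane and a known target of Mtf1, stood at 4.82, 3.5004, 5.59 and 3.83 FPKM in mEpiSC 1 to 4, against 3.86, 4.04, 3.46 and 7.97 FPKM in mESC 1 to 4. Apart from mESC 4 all libraries lay between 3.46 and 5.59 FPKM. The difference did not pass (adjusted p = 0.87), its 95% interval was −0.60 to 0.48, and its sign turned without mESC 4 (log2 fold change 0.17). Slc30a5, Slc30a6 and Slc30a7, which load zinc into the early secretory pathway, and Slc30a9 measured 20.7 ± 3.53, 8.14 ± 0.506, 6.42 ± 1.00 and 22.2 ± 2.93 FPKM in mEpiSC, against 19.4 ± 3.58, 8.85 ± 1.84, 4.44 ± 0.969 and 16.9 ± 2.30 FPKM in mESC (SD, n = 4 each). None of these 4 passed limma's test (adjusted p = 0.059 to 0.71), and each 95% interval lay within −1 to 1. Slc30a8, the exporter of insulin granules, was listed at 0 in all 8 libraries, and Slc30a10, a manganese exporter, did not exceed 0.450 FPKM in mEpiSC or 0.419 FPKM in mESC.

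**Figure D3:**
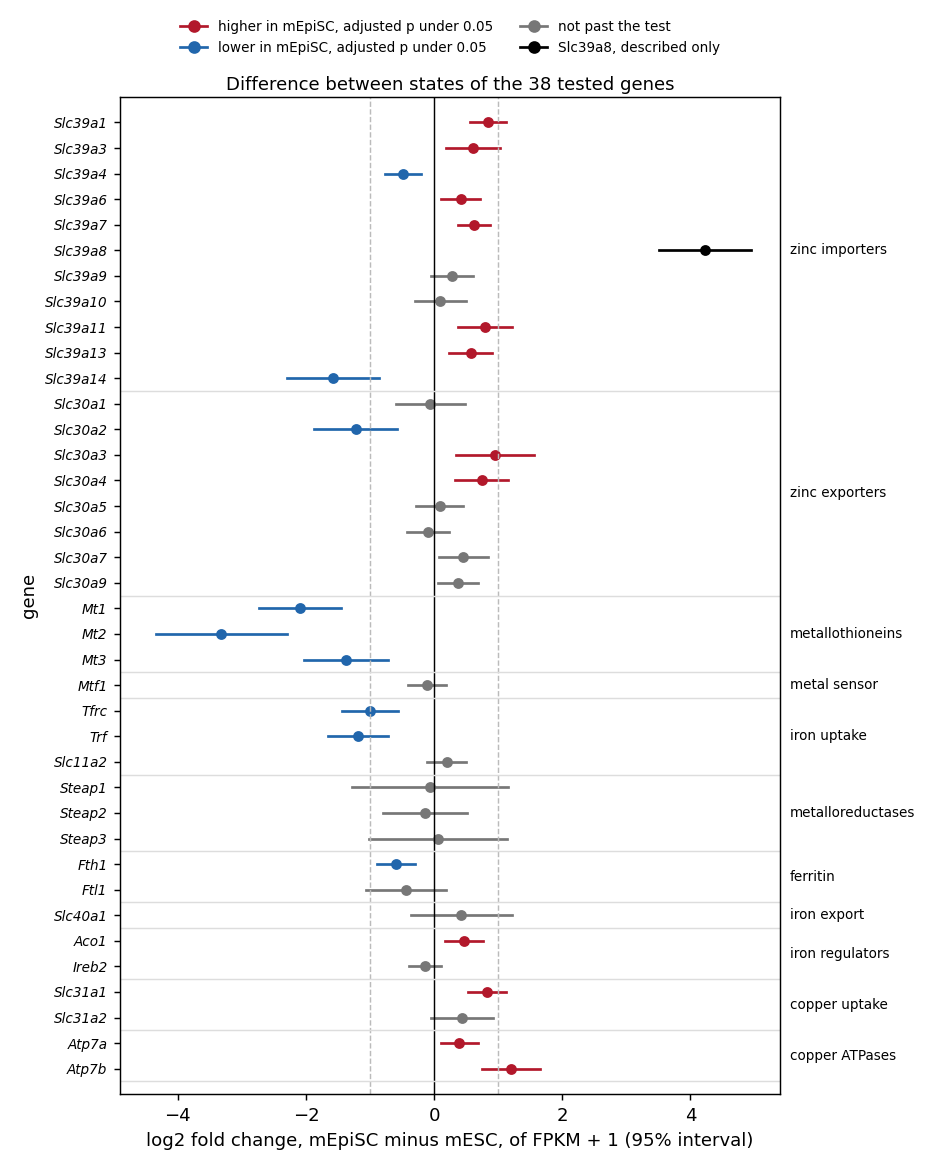
Difference between states of the 38 tested genes, as the log2 fold change of FPKM + 1 (mEpiSC minus mESC) with its 95% interval, grouped by role. Red and blue points passed the limma test and grey points did not. The black point is Slc39a8, and dashed lines mark 2-fold. Trf and Slc30a2 are drawn blue, but both entered the test through mESC alone, so the filter partly set their difference. Mt2 at −3.32 and Mt1 at −2.09 lie furthest left and Slc39a8 at 4.23 furthest right.

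All 3 tested metallothioneins were lower in mEpiSC, where 14.2% of all tested genes were. On the log2(FPKM + 1) scale Mt2 and Mt1 had the largest falls among the 38 tested genes. That scale damps low genes: with a pseudocount of 0.1 Trf (−2.36) and Slc30a2 (−2.32) came between Mt2 (−3.36) and Mt1 (−2.11). Mt2 (mm9 chr8:96696517-96697467) stood at 51.0, 19.9, 17.2 and 55.3 FPKM in mEpiSC 1 to 4, against 288, 278, 215 and 639.7 FPKM in mESC 1 to 4. The states were far apart, with the 2 EpiSC7 libraries lowest and mESC 4 highest (log2 fold change −3.32, SE 0.45, adjusted p = 0.00088). Mt1 (mm9 chr8:96702988-96704227) stood at 55.1, 29.4, 37.3 and 71.2 FPKM in mEpiSC 1 to 4, against 249, 229.8, 146 and 183 FPKM in mESC 1 to 4. Here too no mEpiSC library reached the level of any mESC library, and the EpiSC7 libraries were lowest (log2 fold change −2.09, SE 0.28, adjusted p = 0.00084). Mt3, the form known from neurons and 18.5 kb from Mt2 on the same chromosome, stood at 2.10, 3.81, 2.69 and 6.96 FPKM in mEpiSC 1 to 4, against 12.6, 11.6, 7.66 and 12.1 FPKM in mESC 1 to 4. EpiSC9 came closest to the mESC range without entering it (log2 fold change −1.37, SE 0.29, adjusted p = 0.0064).

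Summed over the 3 genes the metallothionein RNA was 108, 53.2, 57.2 and 133 FPKM in mEpiSC 1 to 4, against 550, 519, 368 and 835 FPKM in mESC 1 to 4. The balance of the 2 main forms moved as well: Mt1 over Mt2 was 1.08, 1.48, 2.17 and 1.29 in mEpiSC 1 to 4, against 0.865, 0.828, 0.678 and 0.286 in mESC 1 to 4, so that Mt1 led in every mEpiSC library and Mt2 in every mESC library. With the fibroblast covariate the log2 fold changes of Mt1 and Mt2 were −2.14 and −2.96; that of Mt3 was −1.11 with an adjusted p of 0.058. Over line means alone Mt1, Mt2 and Mt3 had adjusted p of 0.030, 0.021 and 0.094. Of the transcript windows of Mt2 45.8% recur in the annotation Gm45774, while those of Mt1 and Mt3 recur in no other gene.

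Mtf1, the zinc sensor that activates Mt1, Mt2 and Slc30a1, stood at 2.50, 2.63, 3.20 and 2.38 FPKM in mEpiSC 1 to 4, against 3.03, 3.13, 2.94 and 2.77 FPKM in mESC 1 to 4. The mESC values lay inside the range of the mEpiSC values (adjusted p = 0.53, 95% interval −0.41 to 0.18). One end of it overlaps 1110065P20Rik over 316 bases, where the reads of both genes cannot be told apart without strand. A transcript level says nothing of how much Mtf1 protein is bound to zinc.

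**Figure D4:**
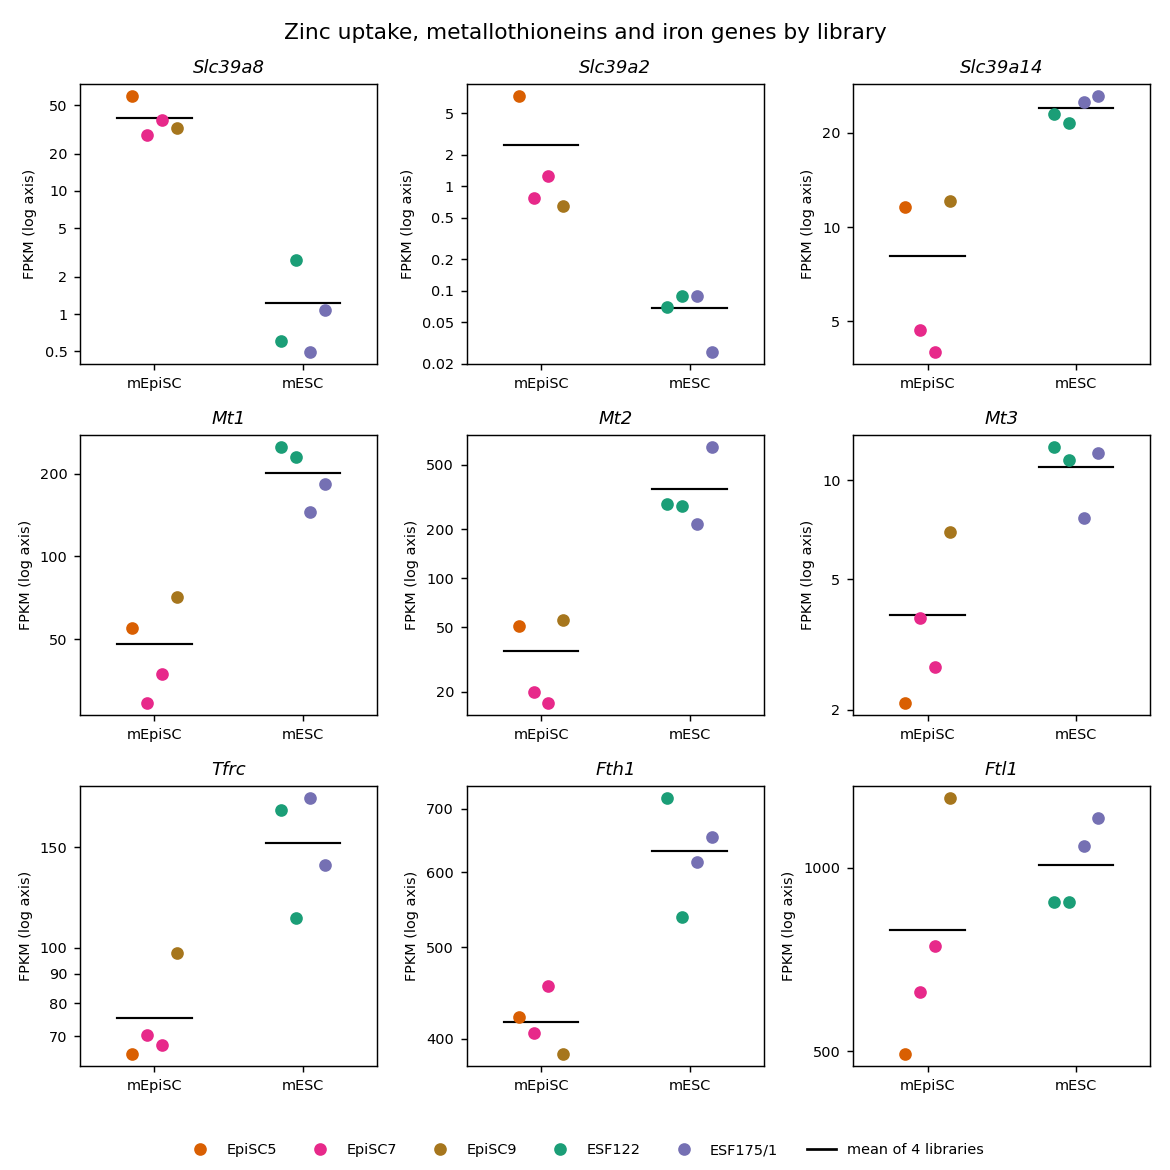
FPKM on log axes of 9 zinc and iron genes in each mEpiSC library (left in each panel) and mESC library (right), coloured by cell line, with the mean of 4 libraries as a bar. The states are apart for every gene drawn except Ftl1, for which EpiSC9 at 1300.2 FPKM lies above all mESC libraries.

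The promoters of Mt1 and Mt2, which were lower, and of Slc30a1, which was not called, are shown because all are textbook targets of Mtf1. The letters searched were TGCACNC and TGCGCNC on either strand, which differ at the fourth base so that no match counts under both, in windows of 300 bases from 250 before to 50 after the start (RefSeq, GRCm38.p6). Capitals mark the matches, a match on the other strand appearing as GNGTGCA or GNGCGCA.
Mt1, chr8:94178839-94179138, plus strand: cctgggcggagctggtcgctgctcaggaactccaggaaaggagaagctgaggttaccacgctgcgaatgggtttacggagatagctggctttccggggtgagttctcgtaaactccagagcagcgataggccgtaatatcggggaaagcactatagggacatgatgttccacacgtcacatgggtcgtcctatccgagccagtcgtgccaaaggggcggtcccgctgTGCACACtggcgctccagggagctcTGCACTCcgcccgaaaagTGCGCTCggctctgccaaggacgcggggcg
Mt2, chr8:94172368-94172667, plus strand: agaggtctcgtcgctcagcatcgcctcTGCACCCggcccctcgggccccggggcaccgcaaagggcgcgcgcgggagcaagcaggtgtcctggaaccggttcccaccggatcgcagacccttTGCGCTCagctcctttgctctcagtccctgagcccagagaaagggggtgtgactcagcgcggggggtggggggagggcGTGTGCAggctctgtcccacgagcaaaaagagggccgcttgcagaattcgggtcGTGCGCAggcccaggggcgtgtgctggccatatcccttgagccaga
Slc30a1, chr1:191906531-191906830, plus strand: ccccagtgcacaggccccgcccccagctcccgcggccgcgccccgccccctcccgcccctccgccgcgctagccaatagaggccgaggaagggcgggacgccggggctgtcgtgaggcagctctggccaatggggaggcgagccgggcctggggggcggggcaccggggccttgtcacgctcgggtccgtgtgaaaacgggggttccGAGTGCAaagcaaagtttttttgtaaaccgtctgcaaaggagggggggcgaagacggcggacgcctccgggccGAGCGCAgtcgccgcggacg

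Mt1 held 3 matches, Mt2 4 and Slc30a1 2. At least 1 match was found in 25.7% of all 32851 RefSeq promoters, at least 2 in 7.11%, at least 3 in 1.97% and at least 4 in 0.517%. Of the 45 genes 38 had a promoter there, with 50 promoters in all, of which 22 held at least 1 match. The promoters with 3 or more were those of Mt1, Mt2, Slc30a4 and Slc30a10. Mt3 held 1 match, Slc39a8 0 at the first of its starts and 1 at the second, and Mtf1 0. Letters in a window are a description of the sequence, and binding was not measured.

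Of 3 tested iron uptake genes Tfrc was lower in mEpiSC, where 14.2% of all tested genes were. Trf was lower but entered the test through mESC alone, and Slc11a2 did not pass. Tfrc (mm9 chr16:32608981-32632880), the receptor that brings in transferrin-bound iron, stood at 65.3, 70.4, 67.6 and 98.0 FPKM in mEpiSC 1 to 4, against 174, 113, 183 and 139.9 FPKM in mESC 1 to 4. The highest mEpiSC library, EpiSC9, was below the lowest mESC library (log2 fold change −1.001, SE 0.19, adjusted p = 0.0041). With 1 mean per line the adjusted p was 0.050, just over the threshold. Trf, transferrin itself, stood at 0.180, 0.396, 0.293 and 0.350 FPKM in mEpiSC 1 to 4, against 1.92, 1.38, 1.48 and 3.497 FPKM in mESC 1 to 4. It was low in both states and lower in every mEpiSC library (log2 fold change −1.19, SE 0.21), and 69.4% of its transcript windows recur in other annotations, chiefly Gm20425.

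Slc11a2, the divalent metal transporter that moves iron out of the endosome, measured 15.1 ± 2.39 FPKM in mEpiSC against 13.0 ± 1.15 FPKM in mESC (SD, n = 4 each) and did not pass (adjusted p = 0.29, 95% interval −0.11 to 0.50). Slc11a1, the phagosome transporter of macrophages, was under 1 FPKM in every library, at 0.0756 to 0.114 FPKM in mEpiSC and 0.260 to 0.617 FPKM in mESC, and was not tested. The Steap metalloreductases, which reduce iron and copper before transport, varied among libraries more than between states. Steap1 stood at 5.51, 5.37, 3.24 and 14.1 FPKM in mEpiSC 1 to 4, against 3.47, 3.25, 7.24 and 19.1 FPKM in mESC 1 to 4. Steap3 stood at 4.70, 2.52, 2.12 and 12.9 FPKM in mEpiSC 1 to 4, against 3.69, 3.52, 2.70 and 8.33 FPKM in mESC 1 to 4. For both genes the replicate 4 library was the highest of its state, in mEpiSC and in mESC. Steap1, Steap2 and Steap3 did not pass limma's test (adjusted p = 0.73 to 0.94), with 95% intervals as wide as −1.27 to 1.15 for Steap1, and Steap4 was not tested, at 0.260 to 3.32 FPKM in mEpiSC and 0.0847 to 1.98 FPKM in mESC.

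The ferritin genes were the most abundant of the set. Fth1 (mm9 chr19:10057192-10059582), the heavy chain that oxidises iron for storage, stood at 421, 406, 455 and 386 FPKM in mEpiSC 1 to 4, against 718, 538, 615 and 653 FPKM in mESC 1 to 4. All mEpiSC libraries were below all mESC libraries (log2 fold change −0.59, SE 0.13, adjusted p = 0.0073); with 1 mean per line the adjusted p was 0.075. Ftl1, the light chain, stood at 495, 625, 743 and 1300.2 FPKM in mEpiSC 1 to 4, against 879, 878, 1085 and 1207 FPKM in mESC 1 to 4. Of the mEpiSC libraries 1, 2 and 3 were below every mESC library and EpiSC9 was above every one, and the difference did not pass (log2 fold change −0.44, SE 0.28, adjusted p = 0.25). Without the EpiSC9 library it did (log2 fold change −0.71, adjusted p = 0.016), and with the fibroblast covariate the sign turned (0.054). The ratio of Ftl1 to Fth1 was 1.18, 1.54, 1.63 and 3.37 in mEpiSC 1 to 4, against 1.22, 1.63, 1.76 and 1.85 in mESC 1 to 4, which sets EpiSC9 apart from the other 7 libraries. Of the transcript windows of Ftl1 86.2% recur in other annotations, 69.7% in Ftl1-ps1, so its level is uncertain; the share for Fth1 was 3.6%.

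The messages of Fth1, Ftl1, Slc40a1 and Tfrc carry iron response elements, through which the iron regulatory proteins act after transcription, and they are shown because the first and last of these genes were lower in mEpiSC. The pattern searched in annotated untranslated regions (GENCODE vM21, GRCm38) was the loop CAGTGN between 2 arms of 5 bases that can pair, counting G with T as a pair, with a C just before the first arm. Each site is written as DNA, 27 bases from 5′ to 3′, and capitals mark the loop.
Fth1, 5′ untranslated region: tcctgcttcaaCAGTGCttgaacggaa
Ftl1, 5′ untranslated region: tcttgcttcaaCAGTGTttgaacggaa
Slc40a1, 5′ untranslated region: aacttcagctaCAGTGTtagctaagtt
Tfrc, 3′ untranslated region, site 1: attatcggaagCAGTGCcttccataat
Tfrc, 3′ untranslated region, site 2: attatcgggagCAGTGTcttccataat
Tfrc, 3′ untranslated region, site 3: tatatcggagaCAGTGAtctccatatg
Tfrc, 3′ untranslated region, site 4: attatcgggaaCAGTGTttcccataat

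These 4 were the genes of the set with a match, of 45 searched, beside 160 of all 21877 protein-coding genes (0.73%). The pattern allows no mismatch or bulge in the arms, so it can miss elements. A gene without a match may still carry an element, and Tfrc may carry more than those shown. In RNA level Tfrc and Fth1 were both lower in mEpiSC, and Tfrc over Fth1 was 0.155, 0.173, 0.149 and 0.254 in mEpiSC 1 to 4, against 0.243, 0.209, 0.297 and 0.214 in mESC 1 to 4. The ratio was lower in mEpiSC 1 to 3 than in any mESC library, and EpiSC9 lay inside the mESC range. Protein levels were not measured.

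The iron regulators and the exporter differed less. Aco1, the iron regulatory protein that doubles as cytosolic aconitase, measured 21.98 ± 1.56 FPKM in mEpiSC against 15.8 ± 2.60 FPKM in mESC (SD, n = 4 each; log2 fold change 0.46, SE 0.13, adjusted p = 0.023), without overlap; leaving out mESC 1, mESC 3 or mEpiSC 2 ended the call (adjusted p = 0.054 to 0.071), as did a fit without replicate 4 of both states (0.056), the line as a random block (0.063), 1 mean per line (0.13) and the fibroblast covariate (0.078). Ireb2, the second iron regulatory protein, measured 41.5 ± 4.36 FPKM in mEpiSC against 45.6 ± 1.99 FPKM in mESC (adjusted p = 0.36, 95% interval −0.38 to 0.11). Slc40a1, ferroportin, the known iron exporter of cells, stood at 4.09, 2.10, 2.02 and 2.87 FPKM in mEpiSC 1 to 4, against 2.95, 3.54, 0.844 and 0.720 FPKM in mESC 1 to 4. The split ran inside mESC rather than between the states: both ESF175/1 libraries were below 1 FPKM and both ESF122 libraries near 3, within the mEpiSC range. Between states it did not pass (log2 fold change 0.42, SE 0.35, adjusted p = 0.37).

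Of 4 tested genes of copper uptake and export 3 were higher in mEpiSC, where 23.1% of all tested genes were, and 1 did not pass. Slc31a1, the high-affinity copper importer, measured 31.7 ± 4.13 FPKM in mEpiSC against 17.5 ± 1.96 FPKM in mESC (SD, n = 4 each; log2 fold change 0.82, SE 0.13, adjusted p = 0.0018). Atp7b, the copper pump known from the liver, stood at 5.85, 3.503, 3.83 and 2.63 FPKM in mEpiSC 1 to 4, against 1.07, 1.36, 0.903 and 1.06 FPKM in mESC 1 to 4. Every mEpiSC library was above every mESC library, and EpiSC5 was the highest (log2 fold change 1.205, SE 0.20, adjusted p = 0.0021); with 1 mean per line the adjusted p was 0.060. Atp7a, the copper pump of most other tissues, measured 6.33 ± 0.483 FPKM in mEpiSC against 4.58 ± 0.514 FPKM in mESC (log2 fold change 0.40, SE 0.12, adjusted p = 0.034). Its states did not overlap, but the call was lost after median ratio scaling (0.11) or quantile normalization (0.24), with the line as a random block (0.12), 1 mean per line (0.17), the fibroblast covariate (0.17) or a mean of at least 5 FPKM (0.054), without replicate 4 of both states (0.053), and without any 1 library other than mEpiSC 4 (0.055 to 0.096). Slc31a2, a related transporter 62.3 kb from Slc31a1, measured 8.42 ± 2.71 FPKM in mEpiSC against 5.91 ± 1.35 FPKM in mESC and did not pass (adjusted p = 0.15).

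Cell lines were also compared within each state. Between the mESC lines 1 of 38 was called, where 0.762% of all tested genes were: Slc40a1 measured 0.844 and 0.720 FPKM in ESF175/1, against 2.95 and 3.54 FPKM in ESF122 (log2 fold change −1.25 for ESF175/1 minus ESF122, SE 0.17, limma adjusted p = 0.033). Among the mEpiSC lines 1 of 38 was called by an F test, where 2.6% of all were: Slc39a14 measured 11.6 FPKM in EpiSC5, 4.69 and 4.00 FPKM in the EpiSC7 libraries and 12.1 FPKM in EpiSC9 (F = 36.3, adjusted p = 0.025). EpiSC5 and EpiSC9 have 1 library each and were assumed to vary like the lines with 2. At an unadjusted p under 0.05 the counts were 9 between mESC lines, where 14.9% of all tested genes were under it, and 12 among mEpiSC lines, where 24.7% were. The counts of called genes depend on single libraries. The mESC count was 7 without mESC 3 and 0 without mESC 1, 2 or 4 or mEpiSC 2 or 3, and the mEpiSC count was 8 without mESC 3 or mESC 4 and 0 without mESC 1 or 2 or mEpiSC 2 or 3.

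**Figure D5:**
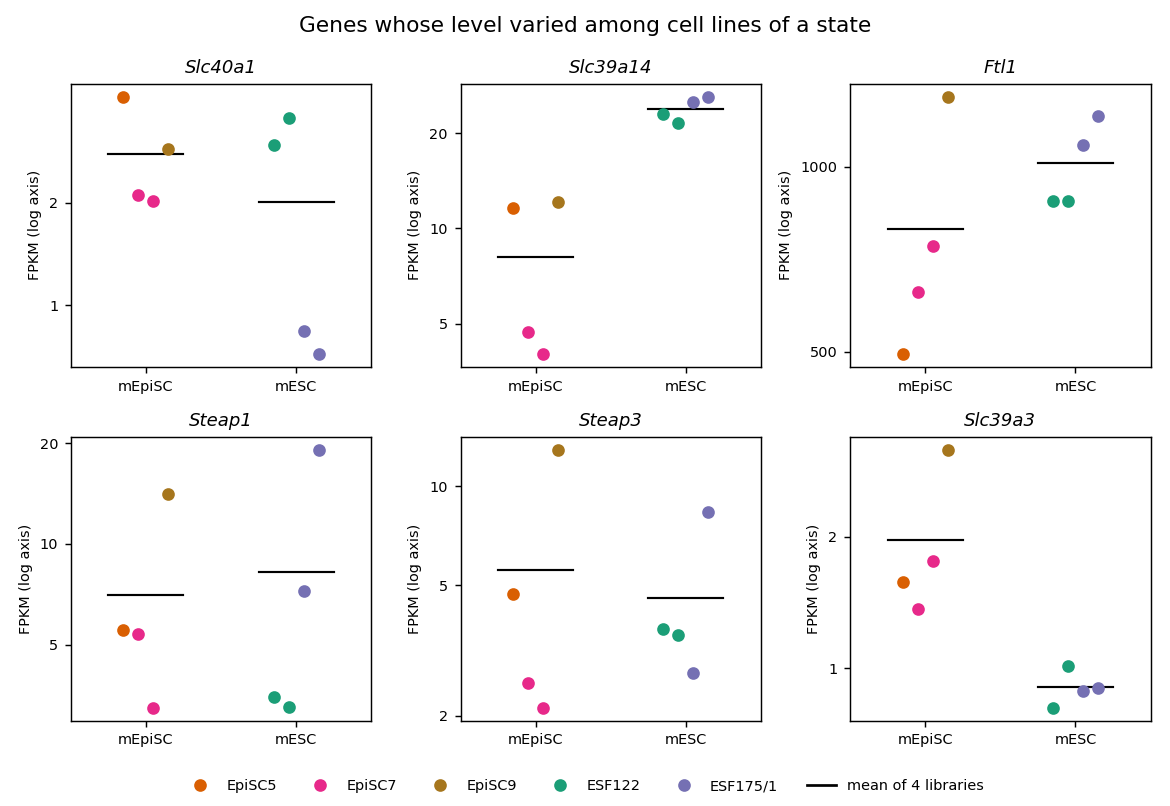
FPKM on log axes of 6 genes, chosen after their values were seen, in each mEpiSC library (left in each panel) and mESC library (right), coloured by cell line, with the mean of 4 libraries as a bar. Slc40a1 divides the mESC lines, Slc39a14 sets EpiSC7 low among mEpiSC, and EpiSC9 is highest in mEpiSC for Ftl1, Steap1, Steap3 and Slc39a3.

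Other genes of metal handling were counted in 5 lists. Of 9 tested genes for iron uptake, storage and export 1 was higher and 4 were lower in mEpiSC, where 23.1% and 14.2% of all tested genes were. Heph, the copper-dependent ferroxidase that works with ferroportin, stood at 9.74, 4.73, 7.21 and 8.61 FPKM in mEpiSC 1 to 4, against 0.221, 0.550, 0.0648 and 0.123 FPKM in mESC 1 to 4 (log2 fold change 2.77, SE 0.22); no mESC library reached 1 FPKM, so it entered the test through mEpiSC alone, its difference was partly set by the filter and no p is given. Ncoa4, the receptor that delivers ferritin to lysosomes for iron release, stood at 1.26, 1.27, 0.979 and 2.06 FPKM in mEpiSC 1 to 4, against 4.94, 4.80, 6.23 and 6.88 FPKM in mESC 1 to 4 (log2 fold change −1.49, SE 0.18, adjusted p = 0.00051). It was lower in every mEpiSC library. Mcoln1, a lysosomal cation channel that passes iron, measured 11.3 ± 1.46 FPKM in mEpiSC against 18.9 ± 1.68 FPKM in mESC (SD, n = 4 each; log2 fold change −0.70, SE 0.12, adjusted p = 0.0028). Slc25a28 and Fbxl5 were the other 2 lower genes.

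Of 20 tested iron-sulfur cluster genes 2 were higher and 2 lower, where 23.1% and 14.2% of all tested genes were. Nfu1, which delivers clusters in mitochondria, measured 13.2 ± 2.57 FPKM in mEpiSC against 30.1 ± 6.0001 FPKM in mESC (log2 fold change −1.12, SE 0.18, adjusted p = 0.0019). Nubp2, of the cytosolic cluster assembly, measured 23.4 ± 1.89 FPKM in mEpiSC against 44.2 ± 7.86 FPKM in mESC (log2 fold change −0.88, SE 0.14, adjusted p = 0.0017). Cisd2, an iron-sulfur protein of the endoplasmic reticulum and mitochondria, measured 16.7 ± 1.71 FPKM in mEpiSC against 9.19 ± 2.58 FPKM in mESC (log2 fold change 0.82, SE 0.18, adjusted p = 0.0067). Of 14 tested heme genes 1 was higher and 2 were lower, beside the same shares of all tested genes. Hmox1, the heme oxygenase that frees iron from heme, stood at 34.0, 37.6, 28.1 and 69.7 FPKM in mEpiSC 1 to 4, against 105, 62.2, 71.0 and 113 FPKM in mESC 1 to 4 (log2 fold change −1.08, SE 0.30, adjusted p = 0.020), with EpiSC9 inside the mESC range. Ppox (log2 fold change 0.60) and Uros (−0.58), enzymes of heme synthesis, had adjusted p of 0.020 and 0.017.

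Of 10 tested copper genes 1 was higher and 4 were lower in mEpiSC, where 23.1% and 14.2% of all tested genes were. Atox1, the chaperone that hands copper to Atp7a and Atp7b, measured 92.4 ± 8.81 FPKM in mEpiSC against 155 ± 19.3 FPKM in mESC (log2 fold change −0.73, SE 0.13, adjusted p = 0.0027). Sco2 (log2 fold change 0.66, adjusted p = 0.023) was higher and Cox17 (−0.62, adjusted p = 0.023) lower; both serve copper delivery to cytochrome c oxidase. Ccs, which loads copper into Sod1, and Sco1 were the other 2 lower genes. Of 3 further zinc genes 1 was tested, Ap3d1, which did not pass (adjusted p = 0.48). Tmem163, not tested, stood at 1.02, 0.715, 1.81 and 0.635 FPKM in mEpiSC 1 to 4, against 0.0552, 0.123, 0.0342 and 0.0409 FPKM in mESC 1 to 4, without overlap. The further metallothionein Mt4 was under 2 FPKM throughout, at 0.0752 FPKM in mEpiSC 4 and listed at 0 in mEpiSC 1 to 3, against 0.399, 1.43, 0.650 and 1.04 FPKM in mESC 1 to 4. Over the 5 lists 5 of 54 tested genes were higher, where 23.1% of all tested genes were, and 12 were lower, where 14.2% were. Without Heph 4 of 53 were higher; without mEpiSC 2 the higher count over the lists was 3, and with the fibroblast covariate the lower count was 5.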

How the data were processed

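The deposited values are FPKM per gene with bounds of an interval, 1 table per library, made by the authors with TopHat2 2.0.6 and Cufflinks 2.0.2 on mm9, per the submitters' processing notes; the gene annotation and the strand setting were not given in the sources used here. No column of per-sample values was left unused. Values and intervals imply fragments, which were whole (tolerance 0.05) for 80.3% to 81.2% of low genes, so depth is an estimate. Symbols at several loci (248 symbols, 712 entries) were left out. Libraries were grouped by their titles, cell lines by the labels.

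States were compared with limma 3.58.1 (trend and robust, statmod 1.5.0, R 4.3.3) on log2 values of FPKM + 1; a gene entered if 4 or more libraries held 1 FPKM, and was called at an adjusted p under 0.05. Lines were compared in a fit with 1 mean per line. The members and lists were chosen with earlier results of these data known. Values in every library are given for Slc39a8, for genes called at 2-fold or between lines and for 11 further genes listed by symbol; of other metal genes, the 3 most changed of those called in each list. The fits were tested on simulated data in which all libraries were independent. In the real data the correlation within a cell line was 0.47, so the simulation cannot show that the p-values hold for this design. Sequences are from RefSeq promoters (GRCm38.p6) and GENCODE vM21 transcripts, and shared sequence is the share of 50-base windows found in other genes. Figures were drawn with matplotlib 3.10.9.

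The replicate numbers are shared between states. Deviations from the state mean, correlated over genes between libraries of 1 number, gave 0.22, 0.15, 0.18 and 0.51 for numbers 1 to 4, all over 0.1. Same-numbered libraries were therefore treated as pairs in the replicate block alternative only, and the main fit took no account of the numbers. The pairing comes from the data, and for numbers 2 and 3 a library of another number correlated more (0.21).

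Alternatives were pseudocounts of 0.1 and 5, no filter or one on the mean (5 FPKM), scaling by median ratios or quantiles, the replicate block, the line as a random block, 1 mean per line, leaving out libraries, voom on implied fragments and the fibroblast markers as a covariate.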

Additional observations from a re-analysis of the deposited data

Results flagged for a closer look

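In 9 of 88 groups of 4 libraries 1 value lay far from the other 3, measured by its gap to the nearest of them against the whole range; chance gives about 1 in 20, or 4.4 groups. Of the 9 values 6 were in the replicate 4 libraries, 3 in mEpiSC 4 and 3 in mESC 4.

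In mEpiSC 4 (EpiSC9) Tfrc was at 98.0 FPKM with the other mEpiSC libraries at 65.3 to 70.4, Slc30a9 at 26.5 with the others at 20.3 to 21.0, and Slc31a2 at 12.5 with the others at 6.81 to 7.42. In mEpiSC 1 (EpiSC5) Slc39a2 was at 7.23 FPKM with the others at 0.654 to 1.26, and Slc39a13 at 4.17 with the others at 3.22 to 3.35. In mESC 4 (ESF175/1) Slc30a1 was at 7.97 FPKM with the other mESC libraries at 3.46 to 4.04, Slc30a5 at 24.8 with the others at 17.2 to 18.2, and Slc39a6 at 8.11 with the others at 6.01 to 6.24. In mESC 1 Slc39a12 was at 0.00882 FPKM with the others listed at 0, which is about 1 fragment.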

How the results depend on the processing

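Of the 27 genes followed, all kept direction and side of the threshold with either pseudocount, with no filter, with voom and with the replicate block. With the replicate block, which pairs libraries of 1 number, 15 of the set were higher and 9 lower, other metal genes were 6 higher and 15 lower, and no call among the 27 changed. The higher count of 13 was 6 with a mean of at least 5 FPKM, 4 with 1 mean per line and 8 to 13 without single libraries; the lower count of 9 was 3 with 1 mean per line and 8 to 10 without single libraries. The 2-fold higher count of 2 was 1 with a pseudocount of 5, a mean of at least 5 FPKM, quantile normalization or 1 mean per line, 5 with voom and 2 to 3 without single libraries; the 2-fold lower count of 7 was 3 with a pseudocount of 5 or 1 mean per line, 4 with the fibroblast covariate and 5 to 7 without single libraries. The similar count of 19 was 31 with a pseudocount of 5 and 18 to 20 without single libraries. For other metal genes the higher count of 5 was 9 with no filter, 3 with a mean of at least 5 FPKM or the random line block, 1 with 1 mean per line and 3 to 6 without single libraries; the lower count of 12 was 6 with the random line block, 4 with 1 mean per line, 5 with the fibroblast covariate and 9 to 18 without single libraries, with 18 without mEpiSC 4. The count of 1 between mESC lines was 0 with no filter, quantile normalization or a mean of at least 5 FPKM and 0 to 7 without single libraries; that of 1 among mEpiSC lines was 3 with no filter and 0 to 8 without single libraries. The mean of at least 5 FPKM and 1 mean per line leave fewer genes or samples; the cause of the other moves was not tested. Among the alternatives, the share of all tested genes called between states was counted only without replicate 4 of both states. The other counts therefore have no share beside them.

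Signs turned for genes not called. With the fibroblast covariate the log2 fold change was 0.054 for Ftl1, −0.12 for Slc39a10, 0.20 for Slc30a1 and −0.054 for Slc40a1. For Slc39a10 it was −0.010 after median ratio scaling, −0.066 (without mESC 4) to 0.21 without single libraries, and −0.091 without replicate 4 of both states. For Slc30a1 it was −0.17 to 0.17 without single libraries (0.17 without mESC 4 and 0.027 without mEpiSC 2) and 0.22 without replicate 4 of both states. With 1 mean per line 15 of the 27 lost their call and 12 did not change side. Those 12 include Ftl1, Mtf1, Slc39a10, Slc30a1 and Slc40a1, which had no call in the main fit to lose. The median log2 fold change over all genes was 0.083 on the deposited scale, −0.014 with libraries scaled by median ratios and −0.019 with quantiles equalised. Depth limits the genes under 1 FPKM, which carry few fragments.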
